A study of Mus musculus with 32 samples.

Results

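Places in mouse hippocampal RNA that repeatedly carried an ac4C peak in the synapse fraction and never in the homogenate were described here. N4-acetylcytidine (ac4C) is an acetylated cytidine, and acRIP-seq finds it by sequencing the RNA fragments that an ac4C antibody captures beside the unselected input. Peaks of the 6 synapse lists that overlapped by at least 1 bp were joined into 21269 regions. A member was a region with a peak in at least 3 of the 6 synapse lists and no overlap with any peak of the 6 homogenate lists, and 464 regions met this rule. They made 2.18% of all synapse regions and 11.4% of the 4084 regions that were held by at least 3 synapse lists, which are called recurrent below. The other 3620 recurrent regions overlapped a homogenate peak and served for comparison. Members were thus chosen by the presence and absence of peaks in these lists, and counts of that presence are a description. The rule counted lists without regard to L and C, and only that difference in presence was permuted, with days standing in for replicates. Since the rule chose members by the same presence, the resulting p-value decides nothing and the counts stay a description.

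All samples were hippocampus of C57BL6/J mice. The synapse lists, labelled SYN, came from group L and group C on days 1, 6 and 20, with 1 list per group and day. The homogenate lists, labelled HOM, came from 3 L and 3 C samples of day 6. A separate set held 2 lists labelled cKO, a conditional knockout whose deleted gene and tissue fraction the labels do not name, and 2 control lists. The peak names inside the files read Learning for L, Control for C, and AAV-cKO and AAV-Cont for that separate set. The labels do not say what the mice of group L learned, at what age, or whether samples came from separate animals. The p-values given here therefore reflect the spread over these lists alone, and that spread may be technical.

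In cells ac4C is written by the acetyltransferase NAT10, long known for its work on ribosomal and transfer RNA and later linked to the stability and translation of messenger RNA. Neurons carry part of their messenger RNA into dendrites and axons, where it can be translated beside the synapse. A synapse fraction is enriched for pinched-off nerve endings and attached postsynaptic densities, and it also holds pieces of glia. A peak list records where capture exceeded input by the authors' threshold, so its peaks depend on how much of an RNA was present as well as on its modification. Fewer cells of a type, less RNA per cell and less ac4C per RNA cannot be told apart in such lists.

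Several features of the lists bear on what follows. Synapse lists held 5586 to 7293 peaks and homogenate lists 15182 to 16971. Read counts were not in the lists and the depth is unknown. In file order the SYN-L list of day 6 stopped on chromosome 7 at base 118984776, and 39 members, or 8.41%, lay beyond it. The homogenate lists of number 1 alone overlapped 321 recurrent regions, so that 785 regions would meet the rule without those 2 lists. The numbers are those of the labels, and the peak names inside the L list of number 1 carry the number 2, so which L list belongs with which number is uncertain. Without the L or the C list of day 1, 272 or 246 regions would meet it. Markers of the choroid plexus and ependyma had a peak for 0 of 10 genes in each synapse list, against 4 to 6 in the homogenate lists. Oligodendrocyte markers had one for 6 to 10 of 17 genes in synapse lists and 13 to 16 in homogenate lists, and endothelial and mural markers for 0 to 3 of 17 and 5 to 6. Neuron markers had one for 8 to 12 of 15 genes in the synapse lists and 10 to 14 in the homogenate lists, and astrocyte markers for 10 to 14 of 15 and 12 to 14. Microglia markers had one for 6 to 7 of 14 genes in synapse lists and 3 to 10 in homogenate lists. The part of cell composition in the choice of members was not tested.

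A genome of the mm10 build was not used here, so the regions themselves cannot be printed. For 6 of the named members that reach the window around an annotated gene start, the RefSeq sequence of GRCm38.p6 is shown from 250 bases before the start to 30 bases after it, with the bases inside the synapse region in capitals. Most members do not reach such a window, which 7.76% of all members and 22.2% of the 45 held by 5 or 6 lists overlapped. The 6 shown are thus not typical of the members, nor of the leading ones. They are chr1:156558537-156558816 on the plus strand for Abl2, chr1:75263742-75264021 on the minus strand for Ptprn, chr1:132880105-132880384 on the plus strand for Lrrn2, chr16:39984114-39984393 on the plus strand for Lsamp, chr7:13037598-13037877 on the minus strand for Ube2m and chr8:83972728-83973007 on the plus strand for Prkaca. Each reads along its gene's strand.
Abl2: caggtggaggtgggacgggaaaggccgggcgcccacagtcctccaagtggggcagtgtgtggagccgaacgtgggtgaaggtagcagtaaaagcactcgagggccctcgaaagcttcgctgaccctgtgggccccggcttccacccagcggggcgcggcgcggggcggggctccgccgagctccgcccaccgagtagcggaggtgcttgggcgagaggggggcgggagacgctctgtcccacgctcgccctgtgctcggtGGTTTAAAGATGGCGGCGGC
Ptprn: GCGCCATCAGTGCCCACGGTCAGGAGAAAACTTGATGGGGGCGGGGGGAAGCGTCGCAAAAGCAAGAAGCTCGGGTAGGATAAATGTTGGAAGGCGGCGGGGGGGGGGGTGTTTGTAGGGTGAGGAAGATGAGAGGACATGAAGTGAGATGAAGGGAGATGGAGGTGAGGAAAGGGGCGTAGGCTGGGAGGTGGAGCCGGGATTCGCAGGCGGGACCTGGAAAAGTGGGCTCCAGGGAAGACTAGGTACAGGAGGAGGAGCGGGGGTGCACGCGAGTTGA
Lrrn2: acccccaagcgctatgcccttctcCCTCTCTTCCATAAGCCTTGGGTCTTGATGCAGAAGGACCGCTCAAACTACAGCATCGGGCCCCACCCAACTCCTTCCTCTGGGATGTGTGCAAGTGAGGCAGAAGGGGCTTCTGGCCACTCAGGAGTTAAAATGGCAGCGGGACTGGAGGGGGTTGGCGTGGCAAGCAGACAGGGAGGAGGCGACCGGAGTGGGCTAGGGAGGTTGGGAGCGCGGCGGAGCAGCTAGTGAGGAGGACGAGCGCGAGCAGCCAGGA
Lsamp: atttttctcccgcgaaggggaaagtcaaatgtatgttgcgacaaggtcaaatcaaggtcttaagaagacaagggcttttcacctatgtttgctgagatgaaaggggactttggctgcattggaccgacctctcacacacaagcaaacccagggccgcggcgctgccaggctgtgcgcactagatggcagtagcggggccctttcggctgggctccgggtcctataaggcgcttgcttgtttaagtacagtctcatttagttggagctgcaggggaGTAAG
Ube2m: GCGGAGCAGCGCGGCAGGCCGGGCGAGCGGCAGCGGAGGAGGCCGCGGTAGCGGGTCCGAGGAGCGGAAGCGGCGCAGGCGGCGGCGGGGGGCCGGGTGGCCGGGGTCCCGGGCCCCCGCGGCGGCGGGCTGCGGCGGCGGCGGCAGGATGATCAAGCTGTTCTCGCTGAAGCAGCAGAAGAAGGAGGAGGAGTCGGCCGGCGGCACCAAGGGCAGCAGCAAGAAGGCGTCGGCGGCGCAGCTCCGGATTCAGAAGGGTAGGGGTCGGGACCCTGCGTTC
Prkaca: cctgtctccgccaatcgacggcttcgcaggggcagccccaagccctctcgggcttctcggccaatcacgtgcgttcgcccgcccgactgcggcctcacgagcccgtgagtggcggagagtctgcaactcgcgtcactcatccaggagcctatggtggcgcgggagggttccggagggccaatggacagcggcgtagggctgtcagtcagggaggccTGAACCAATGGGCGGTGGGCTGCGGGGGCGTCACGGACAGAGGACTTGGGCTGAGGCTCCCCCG

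The capitals show how differently these regions sat on the annotated start. The Ptprn and Ube2m regions covered all 280 printed bases and so reached beyond the window on the upstream side. In Lrrn2 the region covered 256 of the printed bases and in Prkaca 64. In Abl2 it began 10 bases after the start and covered 20 of them, and in Lsamp it began 25 bases after the start and covered 5. The RefSeq spans of Abl2, Ptprn, Lsamp and Ube2m begin further upstream than the starts printed here. The Ptprn and Ube2m regions lay inside those spans. In Lrrn2 and Prkaca the printed start is the start of the span. Of the promoter windows' starts, 60.7% are at the start of the gene span. The files give every peak the same strand, so RNA of the other strand was not tested for. Whether the upstream bases of Lrrn2 and Prkaca belong to an alternative start was not tested either. GC content of the printed windows ran from 52.9% in Lsamp to 76.1% in Ube2m. A motif of CNN repeated 4 times, a C followed by any 2 bases on either strand, has been described for ac4C in messenger RNA, and it occurred in each of the 6 printed windows. Over whole windows of 250 bases before to 50 after a start it occurred in 100% of the 45 windows that members overlap, 99.4% of the 1306 of the compared regions and 88.1% of all 32851, so it did not set members apart. The triplet CCG, searched on both strands and able to overlap the longer motif, was found in 100%, 99.8% and 85.0% of those windows. Both searches also took in bases outside the synapse regions, and whether a match lay inside a region was not tested. The median GC content was 63.3% in the members' windows, 68.7% in those of the compared regions and 52.7% in all.

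The members held by every synapse list were 15 regions. Those reported here lay in or were named for Abl2, Tub, Ptprn, Eapp, Lrrn2, Lsamp, Mpzl1, Dnajc14, Zfp146, Ube2m, Pcdh20, Cnr1, Khdrbs1 and Slc8a2, in the order of their mean rank. Folds below are the authors' fold enrichment of a region's strongest peak in each list and rank peaks within that list only, and a percentile is the rank of the fold among all peaks of its own list.

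Abl2 encodes a tyrosine kinase that acts on the actin cytoskeleton of dendritic spines. Its region, chr1:156558797-156559590, had folds of 7.31, 36.7 and 28 in the L lists of days 1, 6 and 20, against 11.9, 3.62 and 26.2 in the C lists. Both day 20 peaks were near the top of their lists, at percentiles 99.7 in L and 99.5 in C, while the C peak of day 6 stood at 20.9. No homogenate peak carried the name Abl2, though one overlapped the gene's span, and the nearest lay 61067 bp from the region.

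Ptprn encodes a membrane protein of dense-core vesicles. The folds of its region, chr1:75263377-75264204, were 3.33, 40.4 and 6.49 in L and 8.38, 51.9 and 8.28 in C on days 1, 6 and 20. The 2 day 6 peaks stood highest within their lists, at percentiles 91.5 and 97.1. Ptprn had peaks at other places in 5 homogenate lists, the nearest 2536 bp from the region.

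Lsamp and Lrrn2 encode neuronal surface proteins, the first a lipid-anchored adhesion molecule of the limbic system and the second a leucine-rich repeat protein. The Lsamp region, chr16:39984389-39984730, had folds of 24.5, 19.3 and 6.15 in L and 4.90, 9.77 and 5.40 in C. Its percentile was above that of C in each day's L list, at 99.3, 76.7 and 69.9 against 53.1, 63.7 and 60.9. Lsamp is a very long gene, and the nearest homogenate peak lay 960848 bp from this region, the largest distance among the members. The Lrrn2 region, chr1:132880129-132880878, had folds of 8.13, 16.2 and 8.67 in L and 5.24, 34.7 and 4.42 in C, at percentiles of 82.7, 72.4 and 85.9 in L and 57.8, 93.5 and 47.4 in C. The group with the higher rank thus differed between days.

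Cnr1, the cannabinoid receptor of nerve endings, had folds of 5.83, 3.81 and 2.84 in L and 9.68, 2.66 and 2.20 in C at chr4:33943737-33945062, and only 37 bp separated this region from a homogenate peak. Presence in every list thus did not need a high rank, since the Slc8a2 region, in a sodium and calcium exchanger gene, stood at percentiles of 0.788 to 53.3.

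Ube2m encodes the enzyme that conjugates NEDD8, and its region, chr7:13037453-13038235, had folds of 6.13, 5.03 and 5.48 in L and 9.39, 6.73 and 2.25 in C. Tub, the gene of the tubby protein, had 7.23, 16.3 and 6.29 in L and 7.42, 73.9 and 6.42 in C at chr7:109020561-109021227. Ranks within the lists were alike for Tub apart from the C list of day 6, with percentiles of 70.9 to 76.7 in the other 5 lists and 99.0 there. The region named for Eapp lay upstream of that gene, in the span of no coding gene of the RefSeq table, with folds of 19.1, 7.49 and 9.47 in L and 9.76, 4.83 and 11 in C.

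The plot of ranks for the leading members shows these regions and the first 15 of those held by 5 lists.

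**Figure D1:**
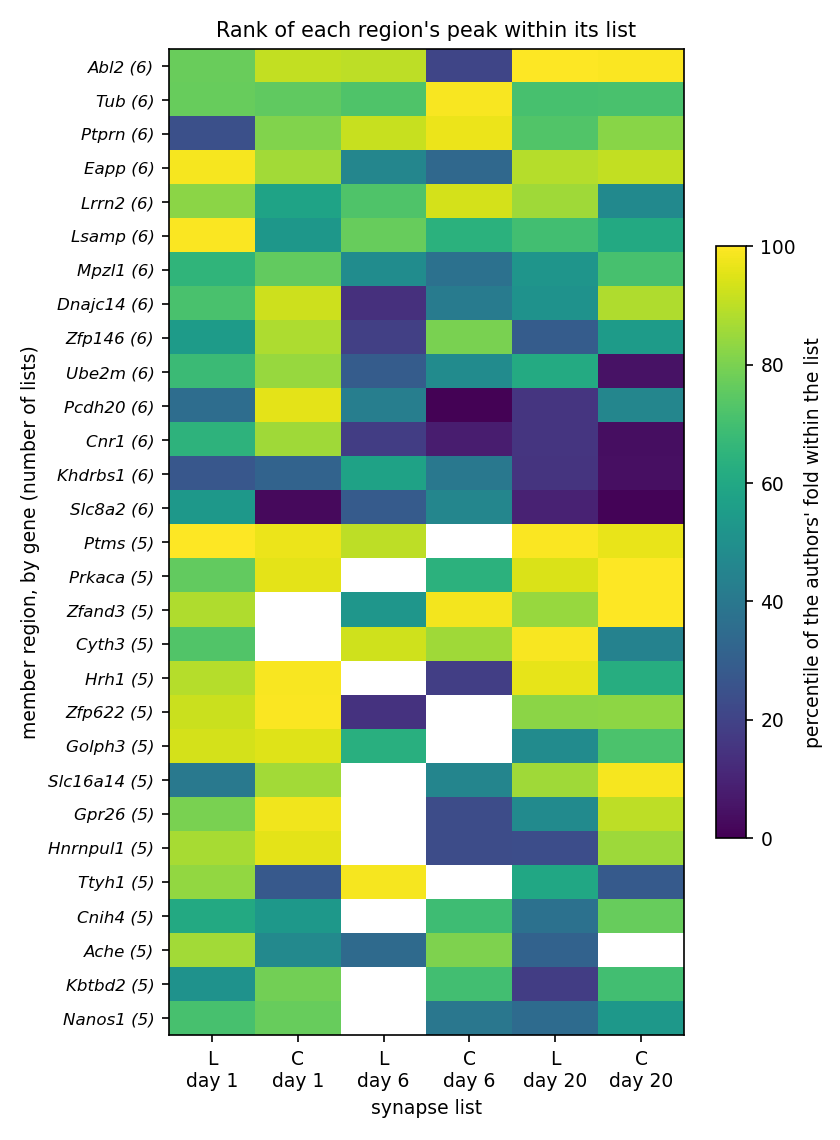
Percentile of the authors' fold within its own list (colour, 0 to 100) for the leading members (rows, with the number of lists that hold each) in the 6 synapse lists (columns, L left of C on each day). White cells have no peak. Ptms is near the top of each list that holds it, at percentiles of 90.1 to 99.6, while Slc8a2 is at 53.3 or below in all 6 lists.

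Among the regions held by 5 lists, Ptms led by rank. It encodes parathymosin, a small acidic nuclear protein. Its folds at chr6:124917377-124917773 were 29.2, 37.0 and 26.2 in the 3 L lists and 20.2 and 15.8 in the C lists of days 1 and 20, with no peak in C on day 6. Prkaca, the catalytic subunit of protein kinase A, had folds of 7.09 and 12.3 in the L lists of days 1 and 20 and 17.2, 9.84 and 32.5 in C. Its region, chr8:83972944-83973421, lies beyond the end of the L list of day 6, so its absence there has no meaning. Ttyh1, a membrane protein gene of the tweety family, had 8.4, 93.2 and 5.33 in L, against 3.34 and 3.34 in the C lists of days 1 and 20. Ache, which encodes acetylcholinesterase, had 8.94, 5.72 and 3.59 in L, against 4.49 and 17.0 in the C lists of days 1 and 6. Hrh1, a histamine receptor, had 9.85 and 14.4 in the L lists of days 1 and 20, against 29.6, 3.4 and 5.51 in C. Cyth3, an exchange factor for Arf GTPases, had 6.68, 44.5 and 21.7 in L and 21.6 and 4.21 in C on days 6 and 20. Nanos1, a translational repressor, Hnrnpul1, an RNA-binding protein, Gpr26, an orphan receptor, and Zfand3, Slc16a14, Cnih4 and Kbtbd2 also belonged to this group, with folds of 2.96 to 64.5. Of the 15 regions of 5 lists drawn, 8 were missing from the L list of day 6, and 2 of these, Prkaca and Gpr26, lay beyond its end.

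Recurrence and absence from homogenate ran in opposite directions. Of the members, 308 were held by 3 lists, 111 by 4, 30 by 5 and 15 by 6. Among all synapse regions 42% overlapped no homogenate peak, and the share fell with the number of lists, from 29.2% of the regions of exactly 2 lists to 17.7% with 3, 10.1% with 4, 4.2% with 5 and 2.8% with 6. Both counts are part of the rule and carry no test.

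The numbers of members in the L and C lists overlapped. The L lists held 322, 233 and 234 members on days 1, 6 and 20 and the C lists 341, 226 and 252, so both groups were highest on day 1. The means were 263 ± 51.1 in L and 273 ± 60.3 in C, a difference of -10 (SD, n = 3 days each). Permuting the lists gave an exact two-sided p of 0.7. With 3 lists a group it cannot fall below 0.1, so 0.05 was out of reach. This p-value decides nothing on L and C, since days stood in for replicates and the rule chose members by the same presence. The counts are thus a description and do not show that the groups are alike. In the range that every list reaches the difference was -1.33. Its direction rested on single lists, as it was 8.5 without the C list of day 1 and 12.7 without the L list of day 6. Members made 10.7%, 10.1% and 8.79% of the recurrent regions of the L lists and 10.6%, 8.67% and 9.78% of those of the C lists. The rank of the members' peaks was the lower one in each list when set beside the compared regions. Their median percentile was 51.1, 42.3 and 39.0 in L and 59.3, 42.6 and 42.6 in C, against 58.2, 65.0 and 53.6 and 61.7, 62.7 and 56.0 for the compared regions in the same lists. In both groups the gap was narrowest on day 1 and widest on day 6.

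**Figure D2:**
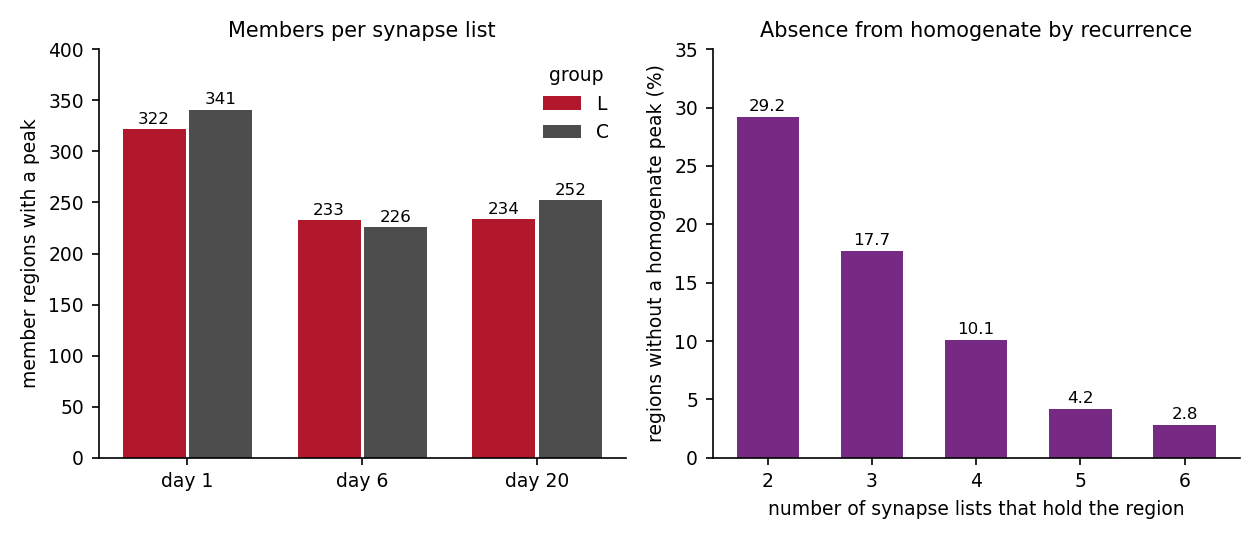
Left, the number of members with a peak (vertical axis) in each synapse list by day (horizontal axis), with L in red left of C in grey. Right, the percentage of synapse regions without a homogenate peak (vertical axis) by the number of synapse lists that hold them. Day 1 has the most members in both groups, with 322 in L and 341 in C, and the percentage falls from 29.2% at 2 lists to 2.8% at 6.

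Few members were confined to 1 group. A peak in all 3 L lists and no C list was found for 14 members, or 3.02%, and for 1.24% of the compared regions. The reverse pattern, all 3 C lists and no L list, held for 16 members, or 3.45%, and 2.04% of the compared regions. The 16 include 2 members beyond the end of the L list of day 6, Hnrnph2 and Insr. In the range that every list reaches, 14 members had each pattern, or 3.29%, beside 1.43% of the compared regions for L alone and 1.53% for C alone. These shares partly follow from the rule, since members were mostly held by 3 lists and compared regions by more. The first L regions by rank were in Oxr1, which protects neurons from oxidative damage, and Chd3, a chromatin remodeller, followed by 2 regions named for Samd14 that lie in the span of Ppp1r9b, and by Rab15, Zfp251, Dek and a region named for Cct2 that lies in Frs2. The Oxr1 region, chr15:41447409-41447701, had folds of 8.94, 24.7 and 14.1 in the L lists of days 1, 6 and 20. The Chd3 region, chr11:69364544-69364975, had 8.28, 17.7 and 9.81. Both stood in the upper part of their lists, at percentiles of 74.5 to 96.1. The first C regions included those in Pdik1l, a kinase gene, Gprin3, which encodes a G protein-associated protein, Kcnk9, a potassium leak channel, Edem3, Tgfbrap1 and Hnrnph2, with 1 named for Lifr that lies in Egflam. The Pdik1l region, chr4:134278246-134278990, had folds of 13.3, 9.60 and 24.5 in the C lists, and the Gprin3 region, chr6:59353153-59353834, had 5.39, 14.7 and 24.2. With 1 list per group and day, none of these regions has a replicate on its day.

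The homogenate lists came from day 6 alone. Both synapse lists of that day held 116 members, or 25%, 1 of the 2 held 227, or 48.9%, and neither held 121, or 26.1%. Among the compared regions both held 40.3%. In the range that every list reaches both held 27.3% of the members and 46.5% of the compared regions, and neither held 24% and 14.8%. All 3 days were represented in 217 members, or 46.8%, and in 64.7% of the compared regions. Members were held by fewer lists, with 66.4% of them held by exactly 3 against 39.4% of the compared regions. A region of fewer lists is less often in both lists of a day or on all 3 days. Part of these differences thus goes with the number of lists, and whether members are scarcer on day 6 beyond that was not tested.

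The genes of the members were seldom without homogenate peaks. By the names in the files the members fell in 411 genes, or 14.8% of the 2784 genes with a recurrent synapse region. Of these genes 386, or 93.9%, had a homogenate peak at another place, and 195, or 47.4%, had one in all 6 homogenate lists. For nearly all of these genes the homogenate thus had a peak, but not at the member's place. The same share over all genes with a recurrent synapse region was not counted, so it is not shown to be particular to members. Among the gene lists used below, 48 of 49 postsynaptic genes and 53 of 78 cytosolic ribosomal protein genes had a homogenate peak. The distance to the nearest homogenate peak had a median of 4316 bp, with quartiles at 1066 and 17860 bp. It was at most 500 bp for 59 members and over 10000 bp for 168. The closest, at 19 and 23 bp, were in Btbd6 and Ankrd63. On the other side of the rule, recurrent regions in Wnk3, Kcnv1 and Ddn were left out for overlaps of 12, 19 and 43 bp.

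**Figure D3:**
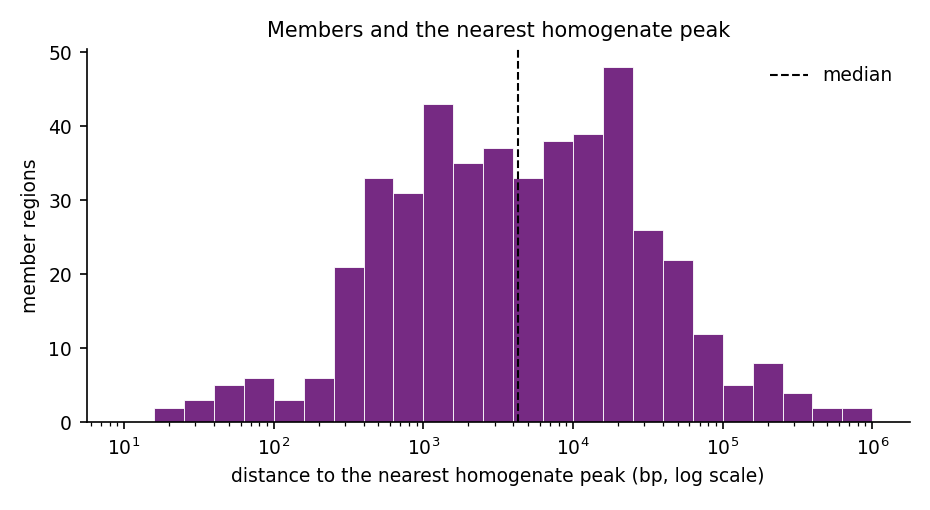
Number of members (vertical axis) by distance to the nearest homogenate peak in bp (horizontal axis, log scale), with the median of 4316 bp as a dashed line. The distances run from 19 to 960848 bp, with 59 members within 500 bp.

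No homogenate peak was named for 25 of the genes, which held 28 members. How many of all genes with a recurrent synapse region lack one was not counted. The 25 genes were Abl2, Ache, Bex2, Gabra5, Gprin3, Hnrnph2, Hrh1, Ikzf5, Kcnip4, Lmbr1, Ly6h, Mrps17, Ncoa4, Ndufb8, Ppp1r3c, Ptms, Rictor, Sfpq, Slc16a14, Sspn, Ttc9c, Ttyh1, Tug1, Ythdf1 and Zfp597. By position, 5 of the 28, in Abl2, Ache, Sfpq, Ikzf5 and Zfp597, lay in the span of a coding gene that a homogenate peak overlaps, and 23 had none by name or by span. Sfpq, a splicing factor that also travels in axonal RNA granules, had folds of 94.6 and 6.46 in the L lists of days 6 and 20 and 27.7 and 11.4 in the C lists of the same days. It had no peak on day 1 at chr4:127021429-127022360. Ly6h, a modulator of nicotinic receptors, had 2 members. The one at chr15:75565901-75567462 had folds of 4.80, 83 and 3.92 in L and 12.7 in C on day 20. Gabra5 encodes a GABA receptor subunit that is abundant in the hippocampus, and its region had folds of 8.05 in L on day 1 and of 12.7 and 9.98 in C on days 6 and 20. Ythdf1, a reader of another RNA modification, N6-methyladenosine, had 3.83 in L on day 20 and 5.99, 15.4 and 3.95 in C on days 1, 6 and 20. Rictor, a subunit of the mTOR complex that controls the actin cytoskeleton, had folds of 2.72 to 3.87 in 3 lists.

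Along the gene, smaller shares of the members than of the other recurrent regions were near the start and larger shares near the end. Members had to lie off homogenate peaks and the compared regions on them, and homogenate regions were themselves most often near the start, so part of this follows from the rule. A region's place was taken within the RefSeq span of the gene the files name, which 365 members, or 78.7%, and 3196 compared regions, or 88.3%, overlapped. The direction of the gene was known for 280 of those 365, or 76.7%. This is under the 80% needed, so the check is void as a statement on all members and the values hold for those 280. The opening 10% of the gene's length held 45 of them, or 16.1% (95% Wilson interval 12.2 to 20.8), against 46.2% of 2526 compared regions and 47.2% of 9447 recurrent homogenate regions. The final 10% held 71, or 25.4% (20.6 to 30.8), against 9.78% and 7.56%. The intervals cover counting error only, and no test was made since regions are not replicates.

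The difference in place was present in each list. Among the members of 1 synapse list, 14.7% to 21.2% lay in the opening 10% and 21.9% to 26.8% in the final 10%, against 45.9% to 47.7% and 9.26% to 10.3% of the compared regions of the same lists. These lists share most of their regions and are not independent. Within 5000 bp of the gene's end lay 40% of the oriented members and 23.2% of the compared regions. Members overlapped a promoter window, 250 bases before to 50 after an annotated start, in 36 cases, or 7.76%, and compared regions in 28.8%. The 45 members held by 5 or 6 lists were more often near the start than members in general, with 34.4% of 32 in the opening 10% and 22.2% of 45 on a promoter window, though 25% of those 32 lay in the final 10%. The median length was 526 bp for members, with a range of 202 to 2671 bp, and 595 bp for compared regions.

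**Figure D4:**
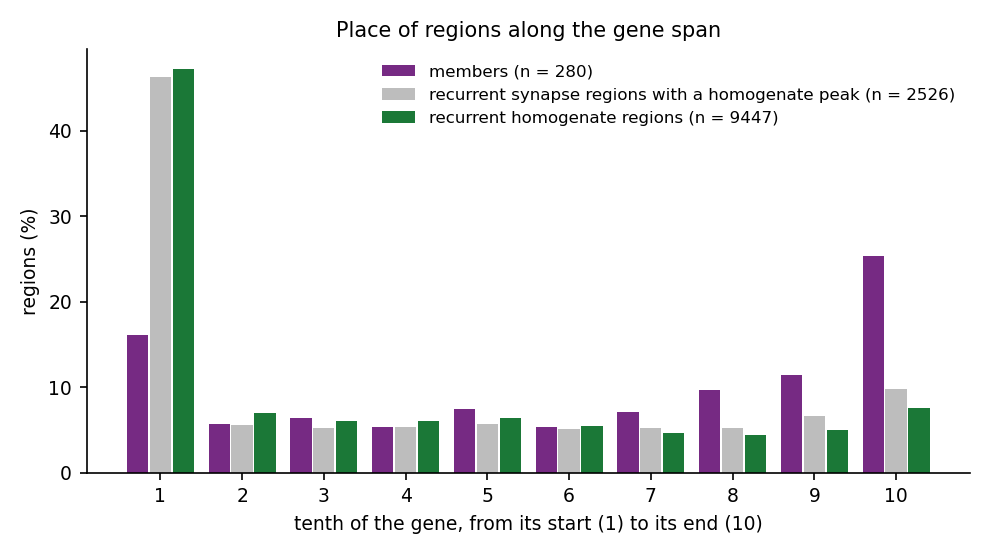
Percentage of regions (vertical axis) in each 10% of the named gene's span, from its start to its end (horizontal axis), for 280 members in purple, 2526 recurrent synapse regions with a homogenate peak in grey and 9447 recurrent homogenate regions in green. Members have 16.1% in the opening 10% and 25.4% in the final 10%, where the grey bars have 46.2% and 9.78%.

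Set against homogenate peaks of the same gene, 135 of 333 members with a known side, or 40.5%, lay beyond all of them toward the gene's end. A further 57, or 17.1%, lay before all of them toward its start, and 141, or 42.3%, lay between them. Only 255 of the 333 lay inside the named gene, with 47 upstream of it and 31 downstream. No share of other regions was set beside these values. Homogenate regions were most often near the start, so part of the share toward the end may follow from that. Hrh1 and Mpzl1 are examples near the end of a gene, with regions at 97.3% and 97.6% of its length. Cnih4, whose product helps receptors leave the endoplasmic reticulum, had its region of 5 lists at 96.9%, and Fbxw7, a ubiquitin ligase subunit, had a region of 3 lists at 99.0%. By name, Lonrf2, Rassf2 and Adcyap1r1, the receptor gene of the neuropeptide PACAP, each had 3 members, of which 1, 2 and 2 lay beyond 90% of the gene's length. Of those named for Lonrf2, 1 lay outside it, in Chst10. Bmpr1b, Oxr1 and Zfp704 were the other genes with 3 members by name, and 41 genes had 2. Some of these regions lay in other genes, among them both named for Samd14, Cct2 and Xbp1.

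The names in the files need care for the remaining regions. Of the 99 members outside the span of their named gene, 94 lay inside the span of exactly 1 other coding gene of the RefSeq table, 5 inside none. The regions of Zfp622 and Golph3 lay in Retreg1 and Mtmr12, and 1 of the 2 of Cox7a2l lay in Eml4. All 3 regions of Zfp704 lay outside it, and 2 of the 3 of Bmpr1b lay in Unc5c. Since the files do not give a usable strand, the gene of origin of these fragments was not determined.

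Synaptic genes were among the members in small numbers. Of the genes for the postsynaptic density and glutamate receptors, 7 of the 30 with a recurrent synapse region held a member, or 23.3%, beside 14.8% over all genes. They were Nrgn, the postsynaptic calmodulin-binding protein neurogranin, Grin2a, an NMDA receptor subunit, Nlgn1, an adhesion protein that binds neurexin, the scaffold genes Dlg3 and Dlgap3, Lrrc4c and Gria2. Nrgn is transported into dendrites as RNA, and its region at chr9:37545827-37546358, 80.6% along the gene, had folds of 4.79 and 3.67 in L and 6.44 and 3.28 in C on days 1 and 20, with no peak in C on day 6 and a place beyond the end of the L list of that day. Grin2a had 2 members. The one at chr16:9577980-9578731 had folds of 5.57, 2.09 and 2.74 in L and 10.8 in C on day 1. The region named for Gria2 lay upstream of that gene, in the span of Glrb, so 6 of the 7 genes had a member inside their own span.

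Of the presynaptic vesicle and active zone genes, 6 of 33, or 18.2%, held a member, among them Rims1, Unc13c, Syt5, Dnm1 and Amph. Rims1, a scaffold of the active zone, had folds of 12.8, 12.8 and 11.6 in L and 21.4 in C on day 6 at chr1:22533971-22534380, inside the gene. Unc13c, which primes vesicles, had 19 and 5.16 in L on days 1 and 20 and 45.6 in C on day 1. Its C peak stood at percentile 99.7 of its list, and the region lies beyond the end of the L list of day 6. Ion channel genes had 4 of 34, among them the potassium channel genes Kcna1 and Kcnj6 and Cacna1b, which encodes a presynaptic calcium channel. The Kcna1 region, chr6:126638686-126639922, had folds of 5.10 and 2.95 in L on days 1 and 20 and 7.10 and 2.32 in C on days 1 and 6.

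Signalling genes gave 2 of 34, Prkaca and Ppp1r1a, an inhibitor of protein phosphatase. The Ppp1r1a region had folds of 3.06 and 9.93 in L on days 1 and 20 and 6.04 and 14.1 in C on days 6 and 20. Activity-induced genes gave 2 of 17, the clock gene Per1 and the kinase gene Sik1. Per1 had folds of 15.5 and 7.20 in L on days 6 and 20, against 3.20, 10.9 and 3.12 in C. Sik1 had 6.99 and 10.4 in L on days 1 and 20 and 10.1 in C on day 1. These lists lay below or near the 14.8% of all genes.

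RNA modification enzymes and readers gave 4 of 10 genes, Ythdf1, Ybx1, Fto and Ythdf2, all inside their spans. Ybx1, an RNA-binding protein of translation control, had folds of 13.6 and 3.12 in L and 7.38 and 2.88 in C on days 1 and 6, and Fto, a demethylase, had 3.41 and 2.51 in L and 3.51 and 3.08 in C on days 1 and 20, at a place that the L list of day 6 does not reach. Splicing factors and hnRNPs gave 3 of 29, which were Hnrnpul1, Sfpq and Hnrnph2. Cytosolic ribosomal proteins gave 4 of 16, but only Rps15a lay inside its own span, and Rpl27, Rps6 and Rpl36 did not. Nuclear respiratory chain genes gave 2 of 11, Ndufb8 and Uqcrfs1. Ubiquitin and proteasome genes gave 3 of 32, Ube2m, Fbxw7 and Psma7, the last outside its span. Cytoskeletal genes gave 2 of 35, Map7d2 and Ank3, chromatin regulators 1 of 23, Chd3, and translation factors 1 of 18, Eif5b. Map7d2, a microtubule-associated protein, had a fold of 16.2 in L on day 1, against 29.7, 14.7 and 9.31 in the C lists, and its place on chromosome X is beyond the end of the L list of day 6.

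Glial genes were also present. Oligodendrocyte markers held a member for 4 of the 7 with a recurrent synapse region, namely Cldn11, Sox10, Mbp and Mag, although the Cldn11 and Mbp regions lay in Slc7a14 and Zfp236. Astrocyte markers gave 2 of 9, Aqp4 and Fgfr3, and the Fgfr3 region lay in Letm1. The Sox10 region had folds of 6.08 and 6.34 in L on days 1 and 6 and 2.52 and 2.48 in C on days 1 and 20. Neuron markers gave 0 of 9 and microglia markers 0 of 6. Genes of endothelial and mural cells and of the choroid plexus had no recurrent synapse region.

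The knockout set, which the rule did not use, was set against the members by position. The cKO lists overlapped 19 and 5 members, or 4.09% and 1.08%, and the control lists 86 and 80, or 18.5% and 17.2%. The means were 12 ± 9.90 in cKO and 83 ± 4.24 in control (SD, n = 2 each), a difference of -71 with no overlap between the groups (p = 0.3333 by exact permutation, two-sided, and no smaller value is possible with 2 lists a group). The cKO lists are shorter as a whole. Compared regions had 16.5% and 7.29% in cKO, against 45.6% and 55.9% in control, and all synapse regions 5.20% and 1.80%, against 15.1% and 18.4%. The ratio of the cKO mean to the control mean was 0.145 for members, 0.235 for compared regions and 0.209 for all synapse regions. The members' share over that of all synapse regions was 0.787 and 0.598 in the cKO lists and 1.23 and 0.936 in the control lists. Whether members respond otherwise than synapse regions in general cannot be told apart from list length with 2 lists a group.

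**Figure D5:**
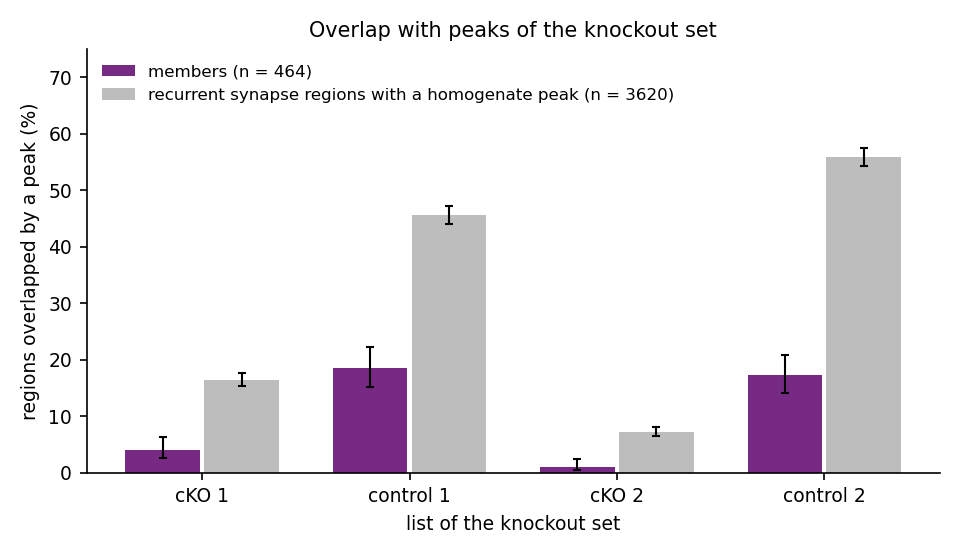
Percentage of 464 members (purple) and of 3620 recurrent synapse regions with a homogenate peak (grey) that a peak of each list overlaps, with cKO left of control for each number. Bars on the columns are 95% Wilson intervals. They cover counting error over the regions within 1 list and not the spread between lists, so they do not compare cKO with control. Members have 4.09% and 1.08% in cKO, against 18.5% and 17.2% in control, below the grey columns in all 4 lists.

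The controls shared few members. Both control lists overlapped 43 members, or 9.27%, and 39.3% of the compared regions, and neither overlapped 341, or 73.5%, against 37.8%. At least 1 cKO list overlapped 19 members, or 4.09%, and 17% of the compared regions, and both overlapped 5, or 1.08%, and 6.8%. Those 5 members were named for Eapp, Clstn1, Nt5dc3, Dek and Lman2l. The Eapp region had a fold of 113 in the first cKO list, at percentile 99.9, and 12.8 in the second, against 31.2 and 9.41 in the controls. Leading members present in both controls and in neither cKO list were Ptprn, Lsamp, Pcdh20, Hnrnpul1, Ttyh1 and Sncb, the gene of beta-synuclein. The Sncb region had folds of 17.3 and 4.06 in the controls, and that of Lsamp 12.2 and 6.21. Abl2 and Ube2m had a peak in both controls and in the first cKO list. Abl2 had a fold of 6.04 in that cKO list, against 8.17 and 9.15 in the controls.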

How the data were processed

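Per the labels' protocols, total RNA of 32 libraries was fragmented, and 16 were captured with an ac4C antibody. The mm10 build and the tools HISAT2 2.0.4, cutadapt 1.9.3 and FastQC are named per the submitters' processing notes, and the peak caller is not given in the sources used here. The authors deposited 1 peak list per captured library. Per the file headers each peak has a fold enrichment, a ratio of capture over input, and a −log10 q-value, both made by the authors. Input libraries were not used here.

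Peaks were joined and overlapped with Python 3.11.15, pandas 2.3.3, numpy 2.4.6 and scipy 1.17.1, with 1-based positions and a minimum overlap of 1 bp. The joining was tested on simulated lists, where 200 of 200 planted members were recovered and 0 wrong ones called. Names were updated through the RefSeq table of GRCm38.p6, where 13151 of 13302 matched. Strands come from RefSeq promoter windows. Group means over lists were tested by exact two-sided permutation. Members, gene lists, tests and alternatives were chosen with earlier results of these data known.

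Members were named in the order of the number of lists that hold them and then of mean percentile of the fold, to 30 regions without predicted symbols. To these were added up to 8 regions of L lists alone and 8 of C lists alone, up to 10 in both controls, up to 8 genes with several members and up to 3 genes per gene list. Other members of the gene lists, genes without a homogenate peak, regions near the threshold of the rule, Insr and the members in both cKO lists were named after their values were seen. Whether the numbers 1 and 2 pair cKO and control samples was looked at through the difference between the 2 lists of each group. These differences correlated at 0.00670 over 21269 regions. The cKO lists overlapped only 5.20% and 1.80% of those regions, so this value cannot settle whether samples were paired or shared a batch. The header of the q-value is also written in 1 way in the lists of number 1 and in another in those of number 2. A few genes named under this rule are left unreported.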

Additional observations from a re-analysis of the deposited data

How the results depend on the processing

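The number of members, 464, was 1591 with at least 2 synapse lists, 156 with at least 4, and 225 among peaks with a fold of at least 5, and leaving out 1 list gave 246 to 570. The values 246 and 272 came without the C or the L list of day 1, the lists that hold the most members. Leaving out 1 synapse list of day 6 or 20 gave 321 to 347, and leaving out both homogenate lists of number 1 gave 785. Members in the gene lists numbered 47, and 72 when homogenate peaks had to cover 50% of a region, 124 with at least 2 lists, 21 with at least 4, 24 at a fold of at least 5 and 30 to 63 with 1 list left out, or 87 without both homogenate lists of number 1. The difference between L and C, -10, turned to 8.5 without the C list of day 1 and to 12.7 without the L list of day 6, with a range of -23.3 to 12.7 over single lists left out. The share in the opening 10% of the gene, 16.1%, was 10.8% with at least 2 lists, 22.2% at a fold of at least 5, 34.4% for members of 5 or 6 lists and 14.7% to 20.7% with lists left out. The share in the final 10%, 25.4%, was 36% with the gene taken by position and 21.4% to 26.4% with lists left out. By position the compared regions had 15.8% in the final 10%, and the opening 10% held 12.3% of members and 40.2% of compared regions. Taking the gene by position was an alternative chosen after seeing the data, as was the split by number of lists. The promoter share, 7.76%, was 5.28% with at least 2 lists, 10.9% with at least 4, 22.2% for members of 5 or 6 lists and 7.48% to 10.2% with lists left out. The cKO difference, -71, was below 0 in each alternative run, with -94.5 to -43 when 1 list was left out and -149.5 without both homogenate lists of number 1. Day as a block left L against C at -10 (exact permutation p = 0.5, and no value under 0.25 can occur with 3 day pairs). That p-value decides nothing either, for the same reasons as the p-value without the block. The number as a replicate block left cKO against control at -71 (exact permutation p = 0.5). Depth was unknown, and a peak missing from a list may have been under the authors' threshold.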
